A study of Mus musculus with 8 samples.

Results

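The enzymes that turn squalene into cholesterol were followed in Picalm-knockout hematopoietic cells with and without a PICALM transgene. The genes were Sqle, Lss, Cyp51, Tm7sf2, Msmo1, Nsdhl, Hsd17b7 and Sc5d, named here in the order in which the enzymes act. Members were all probe sets whose single gene symbol in the array's annotation was one of these 8. All 8 genes were found, with 14 probe sets out of 22626 tested (8 of 12393 named genes).

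Cholesterol synthesis has an early part, in which acetyl units are built up through mevalonate into the open chain of squalene, and a late part, in which the chain is oxidized, folded into a ring system and trimmed. The late part consumes much oxygen and reducing power, and its enzymes sit in the membrane of the endoplasmic reticulum. Most genes of both parts are targets of the transcription factor SREBP2, which becomes active when sterols run low.

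The arrays compared PICALM-rescued cells, transduced with human PICALM cDNA in the MSCVneo retrovirus, with knockout cells that received the empty MSCVneo vector. Both kinds of cell carried the fit1 Picalm fit1-5R mutation on the B6(Cg)-TyrC-2J/J background, came from fetal liver at embryonic day 14 and had been immortalized with an MLL-ENL retrovirus and serial replating. Both were kept in 10% FBS with 5 ng/ml interleukin-3 and 50 ng/ml stem cell factor, and transduced cells were selected with G418. PICALM6A, PICALM6B, PICALM6D and PICALM84, called 6A, 6B, 6D and 84 below, are 4 cell lines, and each gave 1 rescued and 1 knockout array. No cell with its own Picalm gene was on the arrays, and the transgene was driven by a retroviral vector. The deposited values were log2 levels from RMA (a method that corrects background, equalizes the arrays and summarizes each probe set), with array medians from 7.32 to 7.35. No probe set carried the symbol Picalm, so the labels could not be checked against that gene. PICALM protein was not analysed here. Hoxa9, a gene kept active by MLL fusions, was at 13.16 ± 0.27 in rescued cells and 13.11 ± 0.28 in knockout cells (log2, SD, n = 4 each). It is 1 of 10 listed stem and progenitor markers, of which 3 were lower and 0 higher after rescue in all 4 lines. The lower ones were Sox4 (-1.32), Cd34 (-1.25) and Mycn (-1.12, log2 differences). Among hepatocyte genes, Alb was at 5.93 ± 0.05 in rescued cells and 5.95 ± 0.07 in knockout cells, and Afp, made by fetal liver, at 6.98 ± 0.65 in rescued cells and 8.24 ± 0.31 in knockout cells. Of the 6 measured hepatocyte markers, 1 was lower (Afp) and 1 higher (Ttr, by 0.08) after rescue in all 4 lines.

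The promoters of the 4 genes whose rescued arrays all lay above their knockout arrays (1.88% of all probe sets) are shown first. In general, SREBP2 acts at its target promoters together with factors that bind CCAAT boxes and GC boxes. Each line gives the 250 bases before the annotated transcription start (RefSeq, GRCm38.p6), 5′ to 3′ on the gene's strand. In capitals are CCAAT or its reverse complement ATTGG, and GGGCGG or its reverse complement CCGCCC.
Lss, chr10:76531355-76531604, plus strand: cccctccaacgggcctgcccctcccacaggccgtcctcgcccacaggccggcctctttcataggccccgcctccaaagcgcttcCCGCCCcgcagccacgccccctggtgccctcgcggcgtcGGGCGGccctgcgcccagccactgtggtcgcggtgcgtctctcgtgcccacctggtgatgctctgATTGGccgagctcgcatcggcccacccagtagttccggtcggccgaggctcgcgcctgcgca
Cyp51, chr5:4104698-4104947, minus strand: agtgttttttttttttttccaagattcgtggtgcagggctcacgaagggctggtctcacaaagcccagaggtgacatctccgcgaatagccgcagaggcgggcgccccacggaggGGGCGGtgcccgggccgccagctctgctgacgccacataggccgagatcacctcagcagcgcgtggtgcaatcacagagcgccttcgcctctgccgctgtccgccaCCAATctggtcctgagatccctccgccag
Nsdhl, chrX:72918271-72918520, plus strand: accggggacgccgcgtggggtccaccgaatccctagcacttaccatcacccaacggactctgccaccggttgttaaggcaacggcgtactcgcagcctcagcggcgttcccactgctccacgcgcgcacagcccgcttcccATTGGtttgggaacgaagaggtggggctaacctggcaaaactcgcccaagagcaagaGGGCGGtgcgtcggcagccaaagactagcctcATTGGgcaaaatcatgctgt
Sc5d, chr9:42264301-42264550, minus strand: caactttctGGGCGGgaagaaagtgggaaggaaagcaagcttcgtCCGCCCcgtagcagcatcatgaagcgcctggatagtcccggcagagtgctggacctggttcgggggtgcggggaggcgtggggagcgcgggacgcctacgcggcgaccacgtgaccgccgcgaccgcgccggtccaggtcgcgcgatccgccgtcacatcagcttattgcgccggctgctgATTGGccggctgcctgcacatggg

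Of the 8 genes, 7 had a promoter in the RefSeq table, and Sqle was not among them. All 7 promoters held at least 1 CCAAT box and at least 1 GC box on either strand, and in none of them did the motifs overlap. Over all 32851 promoters of the same length, 33.8% held CCAAT, 32.7% held GGGCGG and 11% held both. The box CCAAT occurred 3 times in the promoters of Msmo1 and Hsd17b7, 2 times in that of Nsdhl and once in each of the others. The strict sterol regulatory element TCACNCCAC, read on both strands, was in 0 of the 7 windows and in 1.05% of all promoters. The palindrome CACGTG, a further motif that SREBPs can bind, was in 2 of the 7, those of Hsd17b7 and Sc5d, against 6.02% of all promoters. A match of letters is a description and shows no binding.

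All 8 genes were higher in rescued than in knockout cells of all 4 lines by their brightest probe set, the one with the highest mean level. The differences ran from 0.25 to 0.46 on the log2 scale, with a median of 0.32 (1.24-fold), against a median of 0.00 over all probe sets tested. No probe set of the 8 genes passed the 12.3% false discovery rate of the study's methods in limma blocked by cell line, where 1 of 22626 probe sets was called higher (0.00442%) and 17 lower (0.0751%), or 0.0796% in either direction. The values of each array follow in pathway order, for lines 6A, 6B, 6D and 84 in that sequence.

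Sqle encodes squalene epoxidase, which puts an oxygen on squalene and is a slow, controlled step of the late pathway. It measured 11.17, 11.13, 11.14 and 10.97 in rescued cells, against 11.07, 10.93, 10.85 and 10.57 in knockout cells (log2). Its difference was 0.25 (95% interval 0.10 to 0.40, adjusted p = 0.318 from limma). The groups overlapped, because the rescued array of line 84 lay below the knockout array of line 6A, and within each line the rescued array was the higher one. The difference was 0.10 in line 6A and 0.41 in line 84.

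Lss encodes lanosterol synthase, which folds the oxidized squalene chain into the sterol rings. Its brightest probe set, 1420013_s_at, measured 10.04, 9.89, 10.03 and 10.09 in rescued cells, against 9.80, 9.78, 9.87 and 9.23 in knockout cells (log2). All rescued arrays were above all knockout arrays, with 9.89 in rescued line 6B next to 9.87 in knockout line 6D, and the difference was 0.35 (95% interval 0.01 to 0.68, adjusted p = 0.387 from limma). The name ending _s_at marks probes that may match more than 1 transcript. Probe set 1420014_at gave 0.18 and was higher in all 4 lines, and 1426913_at gave 0.23 with differences of 0.22, -0.04, 0.00 and 0.73 in lines 6A, 6B, 6D and 84.

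Cyp51 encodes the cytochrome P450 that strips the first methyl group from lanosterol. Its brightest probe set, 1450646_at, measured 10.08, 10.15, 10.08 and 10.32 in rescued cells, against 10.03, 9.95, 9.87 and 9.60 in knockout cells (log2). The groups did not overlap, the difference was 0.30 (95% interval 0.02 to 0.58, adjusted p = 0.384 from limma), and line 84 held both the highest and the lowest array. In line 6A it was 0.05. The second probe set, 1422533_at, gave 0.16. The dimmest, 1422534_at, gave 0.11, with -0.22 in line 6A, and had a difference of -0.047 over the other 3 lines once line 84 was left out.

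Tm7sf2 encodes a sterol reductase that removes the double bond left after the Cyp51 step, a reaction shared with the lamin B receptor. It measured 8.82, 8.34, 8.46 and 7.43 in rescued cells, against 8.35, 8.33, 8.34 and 6.99 in knockout cells (log2). Line 84 was low in both groups, so that the groups overlapped widely, at 8.26 ± 0.59 in rescued and 8.005 ± 0.68 in knockout cells (SD, n = 4). The difference within lines was 0.26 (95% interval 0.03 to 0.49, adjusted p = 0.368 from limma). It was 0.47 in line 6A and 0.01 in line 6B, and Tm7sf2 was the member whose difference was not highest in line 84 (0.44).

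Msmo1, Nsdhl and Hsd17b7 work in turn to take off the remaining methyl pair of the sterol ring, as an oxidase, a decarboxylating dehydrogenase and a ketone reductase. Msmo1 measured 11.41, 11.24, 11.24 and 11.08 in rescued cells, against 11.25, 11.03, 11.06 and 10.37 in knockout cells (log2). Its difference was 0.32 (95% interval 0.06 to 0.57, adjusted p = 0.352 from limma), with overlap between the groups from the high knockout array of line 6A.

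Nsdhl, the dehydrogenase of this group, measured 9.92, 9.72, 9.63 and 9.80 in rescued cells, against 9.54, 9.47, 9.54 and 9.27 in knockout cells (log2). No rescued array overlapped with a knockout array, and the spread was alike in both, at 9.77 ± 0.12 in rescued and 9.45 ± 0.13 in knockout cells (SD, n = 4 each). The difference was 0.32 (95% interval 0.12 to 0.51, adjusted p = 0.318 from limma). Hsd17b7, the reductase, measured 9.35, 9.04, 9.12 and 8.64 in rescued cells, against 8.93, 8.93, 9.01 and 8.03 in knockout cells (log2, probe set 1417871_at). Line 84 was the lowest of both groups, as for Tm7sf2. The difference was 0.32 (95% interval 0.07 to 0.56, adjusted p = 0.342 from limma), and the second probe set, 1448865_at, gave 0.19 and was higher in all 4 lines.

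Sc5d encodes a desaturase that adds a double bond to the ring shortly before cholesterol is complete. Its brightest probe set, 1451457_at, measured 10.99, 10.98, 10.96 and 11.02 in rescued cells, against 10.79, 10.70, 10.75 and 9.84 in knockout cells (log2). The rescued arrays lay within a narrow band (SD 0.03, n = 4), above every knockout array (SD 0.46, n = 4). The difference was 0.46 (95% interval 0.02 to 0.91, adjusted p = 0.386 from limma), the largest of the 8, and its interval overlapped with those of the other 7. The second probe set, 1424709_at, was dim at 5.58 ± 0.09 in rescued and 5.37 ± 0.17 in knockout cells and gave 0.21.

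**Figure D1:**
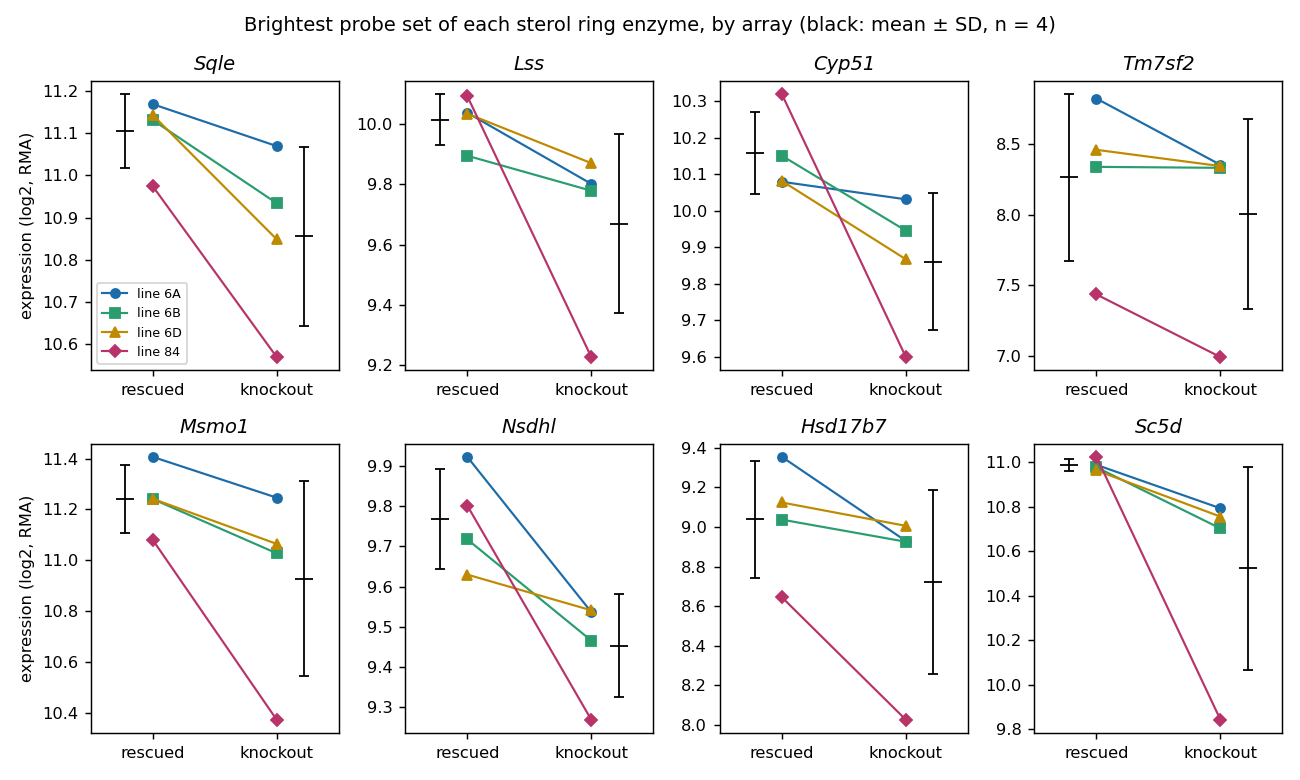
Log2 expression (y axis, own scale in each panel) of the brightest probe set of the 8 sterol ring enzymes in rescued and knockout arrays (x axis), with a line joining both arrays of a cell line and black bars for the mean ± SD of 4 arrays. Each joining line falls to the right, and the knockout array of line 84 is the lowest point of every panel.

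Counted over the 14 probe sets, 12 were higher after rescue in each of the 4 lines, where 12% of all probe sets were, and in 6 of the 14 every rescued array lay above every knockout array, where 1.88% of all probe sets did. An unadjusted p under 0.05 from limma with the line as a block was reached, with higher levels in rescued cells, by 10 of the 14 (6.17% of all probe sets) and by all 8 of the brightest probe sets. Higher levels at this p were found for 7 of the 14 without the block (2.58%) and for 3 with the methods' t-test (2.73%). With lower levels, 0 of the 14 reached it in the fit with the block (6.32% of all). By position among all 22626 probe sets ordered by p, Sqle stood at 544 and Nsdhl at 585, and Cyp51 1422534_at at 13156. SAM, recomputed here from its published statistic, called 0 of the 14 when paired by line, although it called 122 probe sets higher (0.539%) and 470 lower (2.08%). Its unpaired form, added after the data were seen, also called 0 of the 14, and 11 probe sets higher (0.0486%) and 39 lower (0.172%) of all. Adjusted p-values of the 14 from limma ran from 0.318 to 0.747.

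The probe sets of 1 gene gave unequal sizes. In all 4 genes with more than 1 probe set, Lss, Cyp51, Hsd17b7 and Sc5d, the brightest probe set had the highest difference, which was so in 44.4% of the 4956 genes with several probe sets. With the mean over the probe sets of a gene in place of the brightest one, the median of the 8 genes was 0.26.

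**Figure D2:**
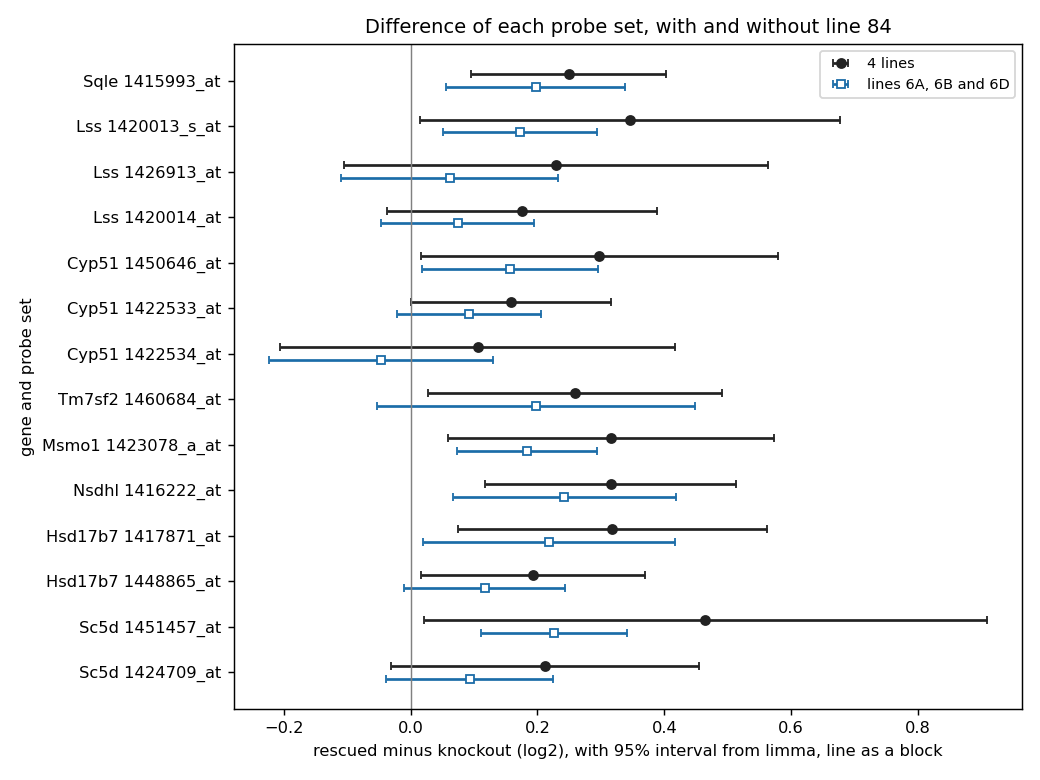
Rescued minus knockout difference (x axis, log2) of each of the 14 probe sets (y axis, in pathway order), with 95% intervals from limma with the line as a block, over 4 lines (filled circles) and over lines 6A, 6B and 6D (open squares). All 14 circles and 13 of the 14 squares lie above 0, and each square lies to the left of its circle.

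The difference was larger in line 84 than in the other lines. The median over the 8 genes was 0.66 in line 84, against 0.22, 0.20 and 0.17 in lines 6A, 6B and 6D (log2), and the difference was highest in line 84 for 7 of the 8 genes (13 of 14 probe sets, against 31.5% of all probe sets). The knockout array of line 84 was the lowest knockout array for all 14 probe sets, which held for 33.5% of all probe sets. The spread among knockout arrays exceeded that among rescued arrays for all 14, against 62.7% of all. Each line and group had 1 array, so a difference between lines could not be tested.

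Without line 84 the median difference of the 8 genes was 0.20 (log2), against 0.01 over all probe sets. All 8 brightest probe sets were higher in the rescued array of each of the 3 lines (12 of the 14 probe sets, against 19.9% of all), and in 8 of the 14 the rescued arrays all lay above the knockout arrays (9.34% of all). Sc5d was then at 0.23 (95% interval 0.11 to 0.34, adjusted p = 0.234 from limma), Msmo1 at 0.18, Lss at 0.17 and Cyp51 at 0.16, each over 1.5 times below its value with 4 lines. Nsdhl (0.24), Hsd17b7 (0.22), Sqle (0.20) and Tm7sf2 (0.20) kept more of their 4-line values. An unadjusted p under 0.05 was reached by 7 of the 14 (7.44% of all), each of them a brightest probe set, with Tm7sf2 as the exception among the 8 genes. None of the 14 was called, where 8 probe sets of all were called higher (0.0354%) and 42 lower (0.186%).

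The rescued array of line 84 did not stand at 1 place among the genes. For Lss, Cyp51 and Sc5d it was the highest of the 4 rescued arrays, and for Nsdhl the second. For Sqle, Tm7sf2, Msmo1 and Hsd17b7 it was the lowest. Set against the knockout arrays of the other 3 lines, it lay above them for 4 genes (Lss, Cyp51, Nsdhl and Sc5d), within their range for Sqle and Msmo1, and below them for Tm7sf2 and Hsd17b7. Tm7sf2, at 7.43 in the rescued array of line 84, was well under the 8.33 to 8.35 of the other knockout arrays.

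The genes before squalene had differences of a like size. Of 10 listed enzymes of that part 8 were measured, and 7 were higher and 1 lower after rescue in each of the 4 lines, with a median difference of 0.31 (log2). The 7 higher ones ran from 0.15 for Hmgcs1 to 0.46 for Mvd. Mvk, a mevalonate kinase, differed by 0.31 (standard error 0.05), Pmvk, the kinase after it, by 0.31 (0.08), Fdft1, which makes squalene, by 0.34 (0.09) and Idi1, an isomerase of the building blocks, by 0.27 (0.07). The lower one was Ggps1, which leads away from sterols towards protein prenylation, at -0.12 (standard error 0.05). None of the 8 was called by limma. In a list of other genes of the late part, which do not all act after the 8 genes, 3 of 5 were measured. Their median was 0.10. Dhcr7, the reductase that completes cholesterol, differed by 0.04, 0.06, 0.02 and 0.64 in lines 6A, 6B, 6D and 84, Ebp, a sterol isomerase, by 0.07, 0.04, 0.03 and 0.26, and Erg28, a scaffold of the demethylating enzymes in yeast, by 0.10, 0.02, -0.01 and 0.17. Outside line 84 these 3 genes thus ranged from -0.01 to 0.10, and the 8 sterol ring enzymes from 0.01 to 0.47. No test was made between the lists.

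**Figure D3:**
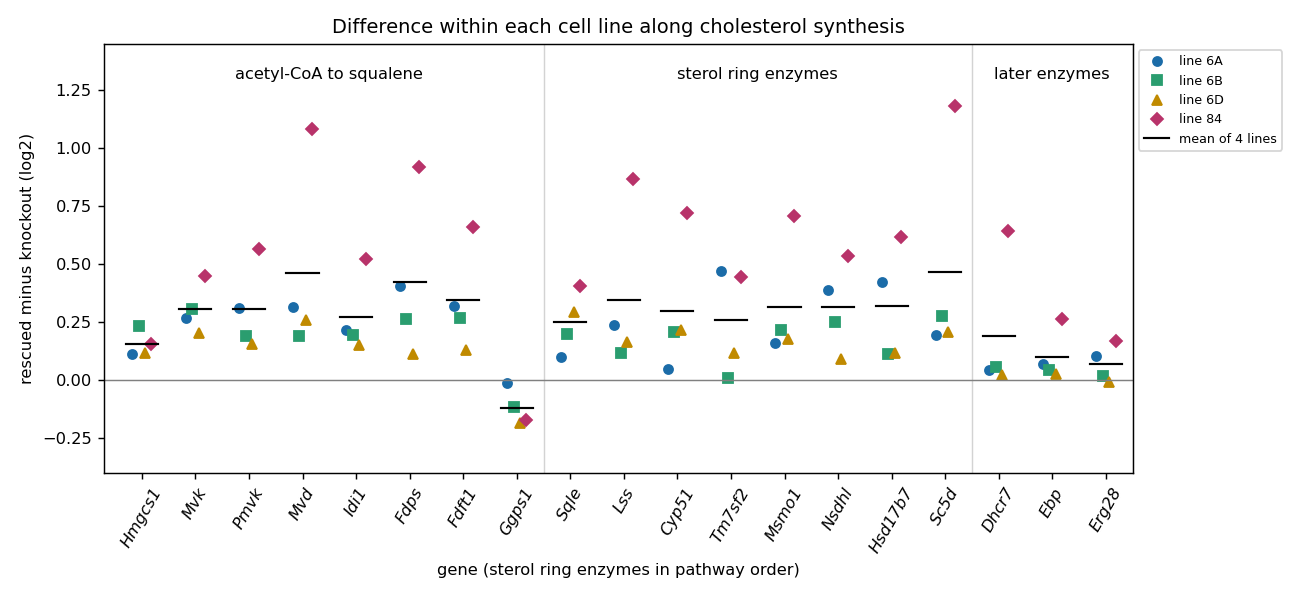
Rescued minus knockout difference (y axis, log2) within each cell line (symbols) and its mean over 4 lines (bars). The x axis gives enzymes from acetyl-CoA to squalene, the 8 sterol ring enzymes in pathway order and other genes of the late part. The last set is labelled later enzymes, but its genes do not all act after the 8. The symbols of all 8 sterol ring enzymes lie above 0, line 84 is highest in 7 of them, and the last set lies near 0 outside line 84.

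The genes of proteins that serve these enzymes had differences in both directions. Of 7 listed electron donors and partners, 6 were measured, of which 2 were higher and 2 lower in all 4 lines, with a median difference of 0.02 (log2). Pgrmc1, a heme protein that binds Cyp51, was at 10.61 ± 0.37 in rescued and 10.94 ± 0.25 in knockout cells (SD, n = 4 each), a difference of -0.32 that did not pass (adjusted p = 0.285 from limma). It was lower after rescue in each line, opposite to Cyp51. Cyb5b, a cytochrome b5, differed by 0.11, and the reductases Cyb5r1 and Cyb5r3 by 0.08 and -0.09. Among 7 measured of 11 listed genes of SREBP regulation and sterol-driven degradation, 3 were higher and 1 lower in all 4 lines, with a median of -0.01. Srebf2, which encodes SREBP2, differed by 0.13, Stard4, a sterol carrier, by 0.19, Mbtps1, a protease that cuts SREBPs, by -0.13, and Marchf6, a ubiquitin ligase that removes squalene epoxidase, by 0.04. Of 9 listed genes of esterification and efflux 6 were measured, 1 was higher and 1 lower throughout the lines, and the median difference was 0.00. Abca1, which exports cholesterol, was the lower one, at 5.97 ± 0.90 in rescued and 6.52 ± 1.10 in knockout cells, a difference of -0.55 (adjusted p = 0.246 from limma). Mylip, a ligase that removes the LDL receptor, differed by 0.12. No gene of these 3 lists was called by limma.

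The levels of the 8 genes were positively correlated across the arrays. Over 8 arrays the correlations of their brightest probe sets ran from 0.35 (Cyp51 with Tm7sf2) to 0.98 (Lss with Sc5d), with a median of 0.84 over 28 pairs, and from 0.33 to 0.95 with a median of 0.77 in the 6 arrays without line 84. These arrays share cell lines and the treatment, so the values describe the arrays and are not tests. Among 12385 other genes, those with the highest Pearson correlation to the mean of the 8 were Mvd, Idi1, Ehbp1l1, Gsr, Arl16, Hp, Fam160a2, Ceacam1, Stard4 and Vsir, from 0.986 for Vsir to 0.995 for Mvd over 8 arrays (Spearman 0.88 to 0.98), and from 0.91 to 0.98 in the 6 arrays without line 84. Mvd and Idi1 are enzymes of the mevalonate part and Stard4 carries sterols. Mvd ran from 9.21 to 9.54 in rescued arrays, against 9.16 to 9.22 in 3 knockout arrays and 8.12 in that of line 84 (log2). Gsr encodes glutathione reductase, Hp haptoglobin and Ceacam1 an adhesion molecule of granulocytes and epithelia. Srebf2 was at -0.16 over 8 arrays and at 0.82 over those 6.

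Marker genes of other cell types also had unequal levels in the groups, although limma called none of them, and in these bulk samples fewer cells of a type and less RNA per cell cannot be told apart. Of 10 neutrophil granule markers, 6 were higher after rescue in each line, and the mean of the list ran from 9.65 to 10.83 in rescued and from 8.16 to 9.21 in knockout arrays (log2). Its median differences were 1.19, 0.54, 0.38 and 1.57 in lines 6A, 6B, 6D and 84. The smallest was in line 6D and the largest in line 84, as for the median of the sterol ring enzymes. By the mean of the 8 enzymes, lines 6B (0.172) and 6D (0.173) were nearly equal. Of 9 measured mast cell and basophil markers, 5 were higher in all 4 lines (list mean 6.07 to 8.89 in rescued and 5.90 to 7.50 in knockout arrays). The median differences of that list had the same order, at 0.530, 0.119, 0.118 and 1.614 in lines 6A, 6B, 6D and 84. Of 10 stem and progenitor markers, 3 were lower in all 4 lines (8.94 to 9.84 in rescued and 9.35 to 10.41 in knockout arrays). These were Sox4, at -1.32 (adjusted p = 0.15 from limma), Cd34, at -1.25, and Mycn, at -1.12, while Hoxa9 was at 0.04 (log2 difference). The median differences of the progenitor list were -0.061, -0.341, -0.150 and -0.437 in lines 6A, 6B, 6D and 84. By size that is another order, largest in line 84 but smallest in line 6A. Of 6 measured erythroid markers 0 were higher or lower in all 4 lines, of 5 megakaryocyte markers 1 was lower, and of 6 hepatocyte markers 1 was higher and 1 lower. Of these hepatocyte markers the lower one was Afp, at -1.25 (adjusted p = 0.208 from limma), and the higher one Ttr, at 0.08. Without line 84 the granule list still had a median difference of 0.66, beside 0.20 for the sterol ring enzymes. The part of cell type in the difference of the sterol ring enzymes was not tested.

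**Figure D4:**
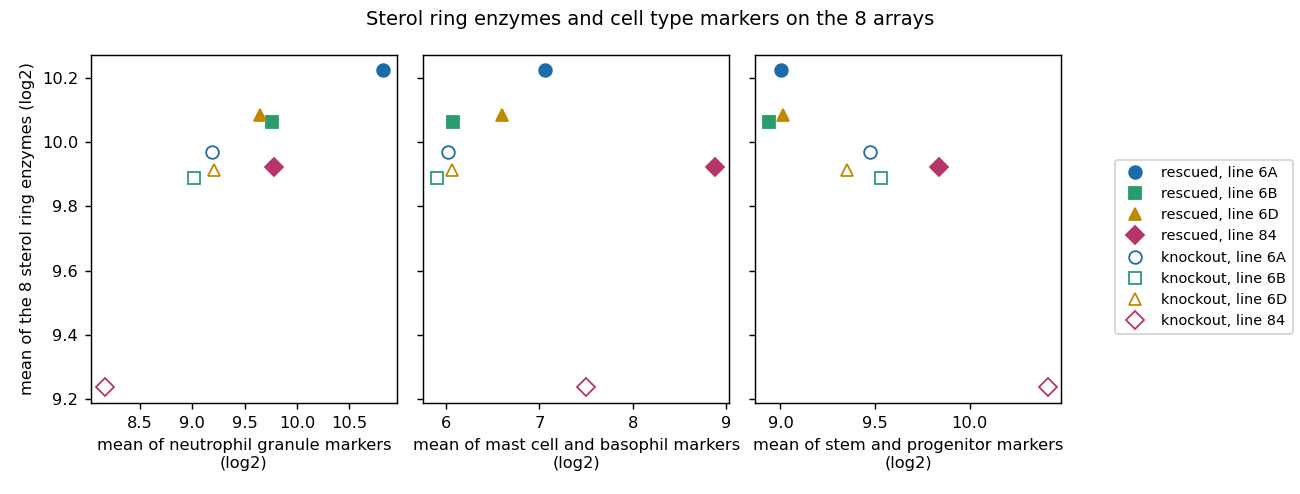
Mean log2 level of the 8 sterol ring enzymes (y axis) against that of 3 lists of cell type markers (x axes) on the 8 arrays, with filled symbols for rescued and open symbols for knockout cells. The knockout array of line 84 has the lowest mean of the enzymes (9.24) and of the granule markers (8.16), and the highest of the progenitor markers (10.41). It also has the highest knockout mean of the mast cell and basophil markers (7.50, against 5.90 to 6.06). The rescued array of line 84 has 9.84 for the progenitor markers, above the knockout arrays of the other lines (9.35 to 9.53), and 9.92 for the enzymes.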

How the data were processed

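Gene expression was measured on 8 Affymetrix mouse arrays, 4 of PICALM-rescued and 4 of knockout cells, grouped by GEO's labels. The labels name the A version of the array, which the number of probe sets fits, and the methods the full version. The deposited values are log2 levels that the authors made by RMA, with software not given in the sources used here, and no step of normalization was added. The table held 22690 probe sets. Without 64 controls, 22626 were tested, 20380 with a single gene symbol, 691 with several and 1555 with none. By gene ID, 20351 were found in a current gene table and 0 symbols changed. No filter on signal was set. Precision is limited by the number of arrays.

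The members and gene lists were chosen with earlier results of these data known. Rescued and knockout cells were compared, two-sided, in limma 3.58.1 (R 4.3.3) blocked by cell line. P-values were adjusted by Benjamini-Hochberg over the whole table, and calls were made at 12.3%, the rate of the methods, which name SAM and no pairing. The labels give each line 1 array per group. Both arrays of a line deviated together from their group means (correlations 0.623 to 0.811). SAM used its published statistic over 16 sign changes, and unpaired over 70 arrangements, which was added after the data were seen. Each test was tried on simulated data. Exact permutation tests cannot give a two-sided p below 0.0286 for 4 against 4 arrays or 0.125 for 4 pairs. Whether lines came from separate embryos is not given in the sources used here. The p-values with the line as a block thus measure how the rescued minus knockout difference varied among these lines only.

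Named genes were all members, up to 4 of each other pathway list by smallest p, and the 10 genes most like the mean of the members by Pearson correlation. Ggps1, Hmgcs1, Afp, Ttr, Hoxa9, Alb, Sox4, Cd34 and Mycn were named after their values were seen. Alternatives were a fit without the block, quantile normalization, SAM, the methods' t-test, median centring, a table without its dimmest 40%, array weights, a robust variance trend, a threshold of 0.05, each line left out, and gene means over probe sets. Figures were drawn with matplotlib 3.10.9.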

Additional observations from a re-analysis of the deposited data

Results flagged for a closer look

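In 7 of 28 groups of 4 arrays, all of them knockout groups, the array of line 84 lay far below the other 3 knockout arrays by Dixon's test, which by chance flags about 1 in 20 groups. The gap to the nearest array was 0.858 of the range for Lss 1420013_s_at (9.23 against 9.78 to 9.87, log2), 0.942 for Lss 1426913_at (7.36 against 7.82 to 7.85) and 0.972 for Lss 1420014_at (6.87 against 7.28 to 7.29). It was 0.984 for Tm7sf2 1460684_at (6.99 against 8.33 to 8.35) and 0.918 for Hsd17b7 1417871_at (8.03 against 8.93 to 9.01). For Sc5d it was 0.905 on 1451457_at (9.84 against 10.70 to 10.79) and 0.914 on 1424709_at (5.11 against 5.43 to 5.46). No rescued group was set apart in this way. The largest gap among the rescued groups was 0.806 of the range, for Sqle in the array of line 84. The 14 probe sets share the same 4 knockout arrays. The share of all probe sets that Dixon's test would flag was not computed. Whether 7 of 28 is more than for other genes on these arrays was therefore not tested.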

How the results depend on the processing

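No probe set of the 8 genes was called under any alternative run, and 193 of 194 results for single probe sets kept their direction and their side of the threshold. The exception was Cyp51 1422534_at, which ran from -0.047 without line 84 to 0.21 without line 6A when each line was left out in turn. The fit without the block, SAM, the methods' t-test, the variance trend, the 0.05 threshold and the dim cut left each difference unchanged. Direction could thus move only with quantile normalization, median centring, array weights or a line left out. The stricter threshold could add no call. The median difference of the 8 genes was 0.20 to 0.37 when each line was left out in turn, lowest without line 84, and 0.23 with array weights, 0.31 with quantile normalization and 0.32 with median centring (log2). Calls over all probe sets, 1 higher and 17 lower, moved with most settings. Without the replicate block, and with the methods' t-test, 0 were higher and 0 lower, although 583 and 617 were higher at an unadjusted p under 0.05. SAM called 122 and 470 paired by line and 11 and 39 unpaired, array weights 25 and 92, and the variance trend 19 and 81. A threshold of 0.05 left 0 and 4, and without the dimmest 40% of probe sets 0 were higher. Leaving out 1 line gave 0 to 8 higher and 0 to 42 lower, where 0 and 0 came without line 6A, 6B or 6D and 8 and 42 without line 84. Over the limma fits and the methods' t-test the lowest adjusted p of any of the 14 was 0.187 (Sqle). The block changed no call of the 8 genes. The cause of these shifts was not tested.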
